A study of Mus musculus with 40 samples.

Results

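The 10 genes described here are immediate early genes, a class of genes whose transcription starts within minutes of a stimulus. They are Fos, Fosb, Jun, Junb, Egr1, Ier2, Ier3, Atf3, Nr4a1 and Klf6. They were taken as the rows of the count table whose Ensembl identifiers map to these symbols, 10 of 52636 genes, and all 10 passed the filter on low counts that left 17079 genes for testing. The set was selected on measured values of these same data: Fosb and Ier3 had differed strongly between the 7 d mice and their comparison groups (Jag blockade at 7 d, thyroid hormone at 7 d in control mice, and 7 d against 5 d). Those contrasts are therefore given as a description, without a p-value, and so are Fosb and Ier3 in every other comparison that shares mice with them.

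Brown adipose tissue is the fat that burns fuel to make heat. Its RNA was sequenced in bulk in 8 groups of 5 male C57BL/6 mice, 40 in all. Control mice received a single intraperitoneal dose of anti-ragweed antibody, an isotype control, at 40 mg/kg. Jag antibody mice received blocking antibodies against Jag1 and Jag2 at 20 mg/kg each. Jag1 and Jag2 are membrane-bound ligands of the Notch receptors, and the antibodies were given to the whole animal. Collection was at 15 h, 5 d or 7 d. A second pair of 7 d groups, 1 per antibody, was also given thyroid hormone daily, starting on day 2. Its daily dose per g of body weight was 1 ug for T4 and 0.05 ug for T3. No other group received hormone. Age is given as 10 to 12 weeks in the text of the series and as 10 to 14 weeks in the protocol of the samples. The labels number the samples of each control group 1 to 5 and those of each Jag antibody group 6 to 10, and these numbers name the mice here. They do not say in words that each sample is a separate animal, so p-values measure the spread between these samples. They give no hour or session of collection, so time after the dose and collection session cannot be told apart.

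Immediate early genes need no newly made protein to be switched on. Growth factor and stress kinases act on the serum response factor and its partners at their promoters, and cyclic AMP acts through CREB, which binds the cyclic AMP response element (CRE). In brown fat noradrenaline from sympathetic nerves raises cyclic AMP, and Nr4a1 and the Fos and Jun families are known to respond to that signal. Fos and Fosb are leucine zipper proteins that pair with Jun or Junb to form the transcription factor AP-1. Atf3 is a stress-induced leucine zipper protein of the ATF/CREB family. Egr1 and Klf6 are zinc finger transcription factors, and Nr4a1 is an orphan nuclear receptor. Ier2 is a small nuclear protein, and Ier3 is a short-lived protein linked to cell survival under stress.

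The stretch just before the transcription start is shown for 6 members, picked for how they varied from mouse to mouse, as given further on. Fos was correlated with Fosb, Jun, Junb and Nr4a1 within groups, and Ier3 had no pair past the threshold. Atf3, which was also correlated with Fos, and Klf6 are not shown. Whether the sequences bear on that variation was not tested. RefSeq (GRCm38.p6) gave a start for 8 of the 10 members. Ier2 and Egr1 were not among them. Each line is the 250 bases before the start, 5′ to 3′ on the gene's strand, with capitals for the CRE core TGACG on either strand (TGACG or CGTCA) and for TATAAA on either strand. Fos lies at chr12:85473640-85473889 (plus strand), Fosb at chr7:19310046-19310295 (minus strand), Jun at chr4:95052223-95052472 (minus strand), Junb at chr8:84978749-84978998 (minus strand), Nr4a1 at chr15:101266596-101266845 (plus strand) and Ier3 at chr17:35821463-35821712 (plus strand).
Fos: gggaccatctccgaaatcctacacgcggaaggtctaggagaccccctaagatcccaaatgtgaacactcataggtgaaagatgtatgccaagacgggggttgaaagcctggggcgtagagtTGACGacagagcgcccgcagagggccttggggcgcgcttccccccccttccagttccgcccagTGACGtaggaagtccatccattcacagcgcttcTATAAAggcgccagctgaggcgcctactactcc
Fosb: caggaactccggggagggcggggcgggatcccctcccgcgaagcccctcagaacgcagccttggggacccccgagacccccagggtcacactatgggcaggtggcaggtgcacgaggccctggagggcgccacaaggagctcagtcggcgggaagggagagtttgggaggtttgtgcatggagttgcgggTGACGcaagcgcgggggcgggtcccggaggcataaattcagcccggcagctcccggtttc
Jun: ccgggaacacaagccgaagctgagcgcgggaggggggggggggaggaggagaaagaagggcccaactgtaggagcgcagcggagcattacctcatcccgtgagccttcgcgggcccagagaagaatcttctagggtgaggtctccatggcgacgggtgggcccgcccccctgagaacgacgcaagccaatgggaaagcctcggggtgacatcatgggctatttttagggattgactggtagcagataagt
Junb: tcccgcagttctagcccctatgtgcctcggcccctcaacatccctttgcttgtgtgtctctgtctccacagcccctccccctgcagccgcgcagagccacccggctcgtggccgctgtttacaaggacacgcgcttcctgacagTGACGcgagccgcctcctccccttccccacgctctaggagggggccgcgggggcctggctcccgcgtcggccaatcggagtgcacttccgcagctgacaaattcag
Nr4a1: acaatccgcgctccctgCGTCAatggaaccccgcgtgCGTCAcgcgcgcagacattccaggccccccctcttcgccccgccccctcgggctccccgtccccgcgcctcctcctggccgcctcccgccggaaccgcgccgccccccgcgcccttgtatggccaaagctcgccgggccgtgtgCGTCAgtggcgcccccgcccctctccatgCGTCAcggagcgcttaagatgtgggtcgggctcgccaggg
Ier3: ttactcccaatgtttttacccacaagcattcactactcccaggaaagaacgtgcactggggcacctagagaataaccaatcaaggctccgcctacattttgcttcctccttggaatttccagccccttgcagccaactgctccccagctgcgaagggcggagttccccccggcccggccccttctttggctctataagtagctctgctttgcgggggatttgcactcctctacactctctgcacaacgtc
The CRE core begins 129 and 66 bases before the start of Fos, 60 bases before that of Fosb, 106 bases before that of Junb and 7 bases before that of Atf3. Nr4a1 holds 4 copies, 233, 213, 69 and 40 bases before its start. Jun, Ier3 and Klf6 have none in this window. So 5 of 8 members hold the core, against 17.9% of 27025 RefSeq promoters of the same length. TATAAA begins 33 bases before the start of Fos and is in 1 of 8 members, against 13.0% of promoters. The full CRE, TGACGTCA, which contains the core on both strands, is in 0 of 8 members and 1.62% of promoters. The AP-1 motif TGANTCA, searched on both strands, is in 0 of 8 members and 6.87% of promoters. The CArG box, the motif of the serum response factor, in its strict form is in 0 of 8 members and 1.4% of promoters. These are matches of letters, and binding was not measured. Sites outside the 250 bases, looser forms of the motifs, and the promoters of Ier2 and Egr1 were not searched, so absence here does not show that a gene lacks such a site.

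The libraries held 12217623 to 36511893 counts. All 10 brown adipocyte markers examined were found in every group, with a summed level of 8534 to 70130 CPM (reads per 1e+06 reads of the library, with the library size corrected by TMM). Markers of other tissues moved with some groups. The summed level of 8 skeletal muscle genes was 1018 to 175900 CPM in control mice at 5 d and 0.878 to 43.9 CPM in Jag antibody mice at 5 d. The summed level of 10 myeloid genes reached 6275 CPM in 1 control mouse at 15 h, with a group median of 786 CPM. None of the muscle or myeloid markers was at 0 in all mice of any group. A lower level in bulk tissue can come from fewer cells of a type or from less RNA per cell, and these cannot be told apart here.

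Per kb of exon, so that genes can be compared with each other, the median level over the 40 mice was highest for Nr4a1 (19.3 CPM per kb), Klf6 (17.9) and Jun (13.8). It was 9.73 for Egr1, 9.38 for Ier2, 6.26 for Atf3, 6.25 for Ier3, 4.47 for Junb and 4.11 for Fos. Fosb was lowest at 0.428 CPM per kb. The order changed from mouse to mouse, because the members varied widely between mice of the same group. Among genes with a mean log2 CPM of at least 1, the within-group SD of Fosb, 1.62 on the log2 CPM scale, stood at the 99.2 percentile, that of Fos (1.29) at 98.7 and that of Atf3 (1.18) at 98.2. Klf6 (0.59) and Jun (0.62) varied least among the members, at the 82.3 and 84.7 percentiles.

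Jag antibody mice at 5 d had the lowest mean log2 CPM of the 8 groups for 7 of the 10 members (Fos, Fosb, Jun, Junb, Egr1, Ier3 and Atf3). Jag antibody mice with hormone were lowest for Ier2 and Nr4a1, and control mice at 5 d for Klf6. Control mice at 15 h were highest for Fos, Jun, Junb, Egr1 and Klf6, and control mice at 7 d for Fosb, Ier2, Ier3, Atf3 and Nr4a1. When the 8 groups are put in order for each member, the CPM ranges of neighbouring groups overlapped in every case but 1. That case was Fos in control mice at 5 d and Jag antibody mice at 5 d, the bottom neighbours in its order.

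The members lie on several chromosomes (GRCm38, GENCODE M21, whole genes). Fosb spans chr7:19302696-19310051 on the minus strand, with 6243 exonic bases against 2352 for Fos. Fos spans chr12:85473890-85477273 on the plus strand, and Ier3 spans chr17:35821684-35822923 on the plus strand. The span of Jun shares 689 bases with the antisense gene Junos, that of Junb shares 351 bases with Prdx2, and that of Atf3 shares 108 bases with Gm24748, each on the opposite strand. Whether the counting used strand is not given in the sources used here, so reads of these overlaps are uncertain.

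**Figure D1:**
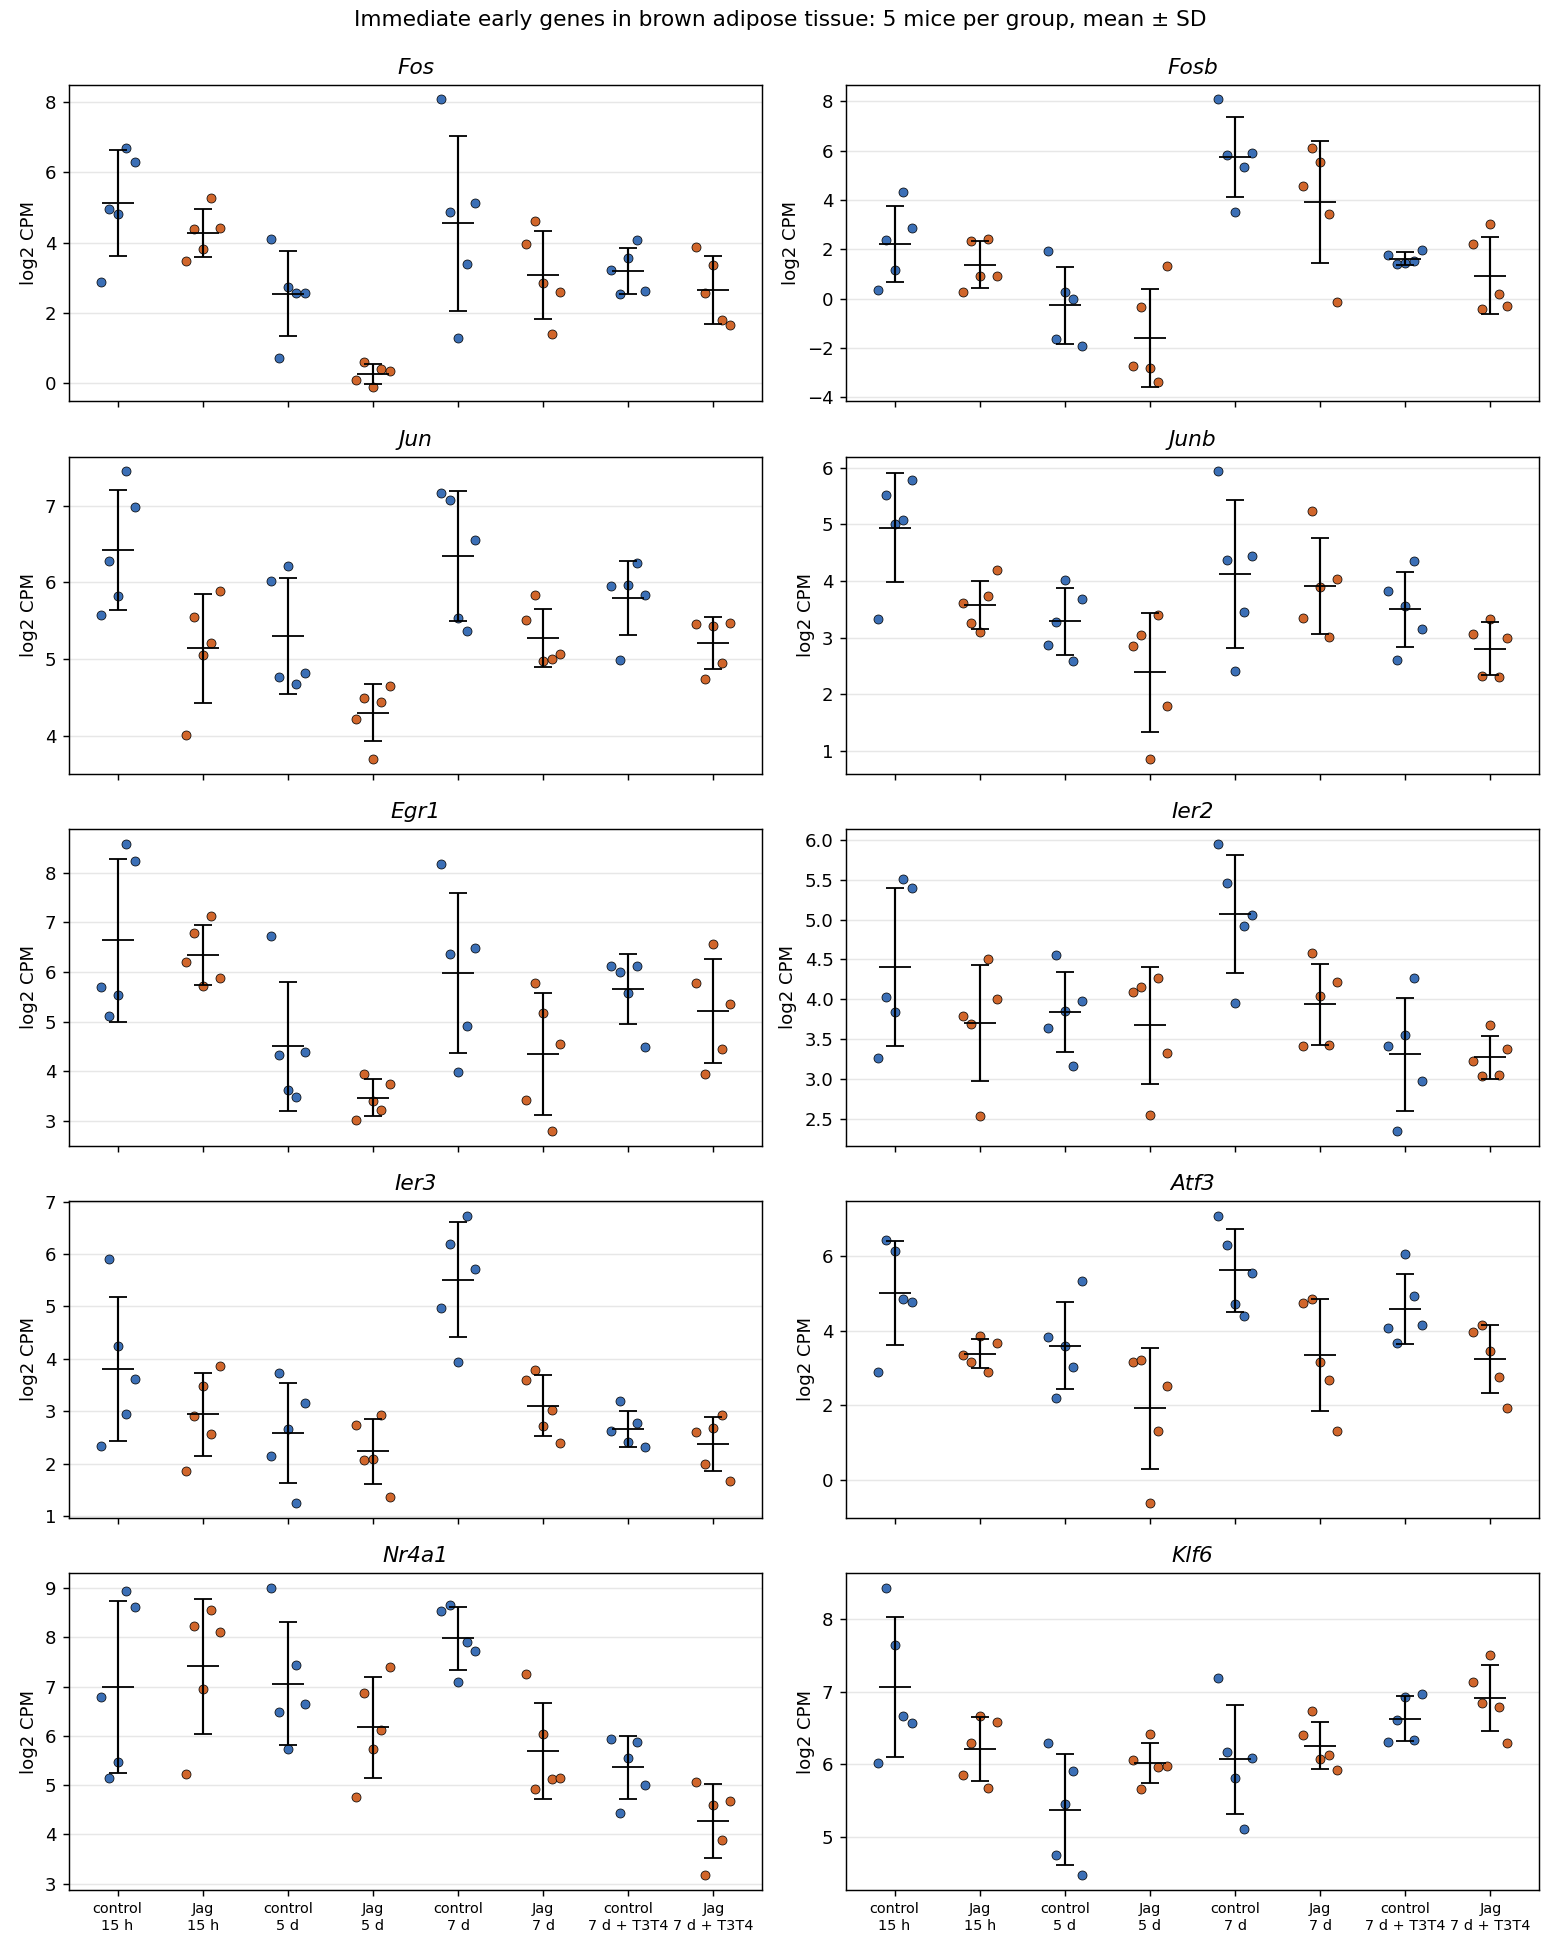
Level of each of the 10 immediate early genes in every mouse (y axis, log2 CPM, computed with a prior count of 2) by group (x axis, 5 mice each; blue is the control antibody, orange the Jag antibodies); bars show mean and SD. Fos is lowest in all 5 Jag antibody mice at 5 d, and Fosb and Ier3 are highest on average in control mice at 7 d.

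The first question was how the members differed between 15 h and 5 d after the dose. The 15 h mice played no part in choosing the members, but the 5 d mice were an arm of the 7 d against 5 d contrast, so Fosb and Ier3 are only described here. In control mice all 10 members had a negative log2 fold change at 5 d. Fos, Egr1, Jun, Junb and Klf6 had an adjusted p under 0.05 (edgeR's quasi-likelihood test over 17079 genes, Benjamini-Hochberg). The count of 6 called members used below also includes the selected gene Ier3, so nothing is read from that count. Of all tested genes 36.4% were called, and 20.1% of all tested genes were called as lower. The median log2 fold change was -1.68 over the members and -0.01 over all genes. Under the Jag antibodies all 10 members were again lower at 5 d, and 2 of them, Fos and Egr1, fell past the threshold, where 14.5% of all genes were called and 6.24% of all genes as lower. These comparisons and those of the antibodies at 15 h and 5 d share mice.

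Fos stood at 7.25, 31.2, 27.8, 102.5 and 78.9 CPM in control mice 1 to 5 at 15 h. At 5 d it stood at 17.1, 1.54, 6.601, 5.88 and 5.87 CPM in the 5 control mice. The ranges overlapped through mouse 1 of each group. Fos fell by 2.74 on the log2 scale in control mice (SE 0.81, adjusted p = 0.00988 by edgeR). Jag antibody mice 6 to 10 had Fos at 11.1, 20.7, 13.9, 38.6 and 21.2 CPM at 15 h. At 5 d it stood at 0.963, 1.43, 0.832, 1.23 and 1.17 CPM. Every Jag antibody mouse at 5 d was below every one at 15 h. An absence of overlap was seen for 2 of 10 members, Fos and Egr1, and for 13.6% of all genes. The fall of Fos by 4.22 on the log2 scale (SE 0.89, adjusted p = 0.00281 by edgeR) held in all 11 alternative fits and with each of the 10 mice left out.

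Egr1 stood at 52.1, 34.4, 46.3, 384 and 301 CPM in control mice at 15 h. It stood at 105.2, 19.9, 12.1, 11.1 and 20.8 CPM at 5 d. Mouse 1 at 5 d was above 3 of the 5 mice at 15 h. The fall was 2.27 on the log2 scale (SE 0.74, adjusted p = 0.0170 by edgeR), and without control mouse 4 at 15 h the adjusted p was 0.0798. The Jag antibody mice had Egr1 at 73.1, 110.4, 52.4, 139 and 58.9 CPM at 15 h. It stood at 8.02, 15.2, 10.4, 9.23 and 13.3 CPM at 5 d. These groups did not overlap, and the fall of 2.95 on the log2 scale (SE 0.76, adjusted p = 0.0110 by edgeR) held in all 11 alternative fits and with each mouse left out.

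Of the AP-1 partners among the members, Jun and Junb fell in control mice. Jun stood at 47.6, 77.7, 56.8, 175 and 126 CPM at 15 h. It stood at 65.0, 27.0, 74.2, 25.3 and 28.1 CPM at 5 d. The groups overlapped, and the fall of 1.14 (SE 0.37, adjusted p = 0.0169 by edgeR) kept its direction but not its call without control mouse 4 at 15 h (-0.72) or control mouse 2 (-0.93) or 5 (-0.94) at 5 d. Junb ranged over 9.90 to 55.0 CPM at 15 h and 5.90 to 16.2 CPM at 5 d, a fall of 1.78 (SE 0.51, adjusted p = 0.00768 by edgeR). Fosb ranged over 1.19 to 19.9 CPM and then 0.168 to 3.72 CPM, a log2 difference of -2.47 (SE 1.00), and left-out mice moved it between -3.41 and -1.53. Under the Jag antibodies Jun had a log2 fold change of -0.93 and Junb of -1.002, with adjusted p of 0.0824 and 0.168 by edgeR. That of Fosb was -2.09. Fosb had at most 2.37 CPM in the Jag antibody mice at 5 d, and in mouse 9 it had 0 counts, which allows up to 0.154 CPM (3 counts, counting error only).

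Klf6 also fell in control mice, and Ier3 was lower. Klf6 ranged over 65.0 to 345 CPM at 15 h and 22.2 to 78.4 CPM at 5 d, a fall of 1.80 (SE 0.37, adjusted p = 0.000627 by edgeR). Klf6 and Junb each lost the call in 2 of 11 alternative fits and kept it with each mouse left out. The ranges of Klf6 in Jag antibody mice were 51.0 to 101.8 CPM and 50.6 to 85.8 CPM, with a log2 fold change of -0.23 (adjusted p = 0.700 by edgeR). Ier3 stood at 4.98, 59.7, 18.9, 7.58 and 12.2 CPM in control mice at 15 h. It stood at 4.31, 13.1, 6.22, 2.27 and 8.81 CPM at 5 d, a log2 difference of -1.58 (SE 0.52). Only mouse 2 and mouse 3 at 15 h were above the range at 5 d. Without control mouse 2 at 15 h the log2 fold change of Ier3 was -0.61. Atf3 (-1.48, adjusted p = 0.0904), Ier2 (-0.77, adjusted p = 0.128) and Nr4a1 (-0.21, adjusted p = 0.819) did not pass the edgeR test.

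Control mouse 2 at 15 h had the highest myeloid score of its group, 8.61 on the log2 CPM scale against a group median of 4.25, and was the highest mouse for Ier3, Atf3 and Klf6. Of the 10 myeloid markers, 8 were called lower at 5 d than at 15 h in control mice, with summed levels of 299 to 6275 CPM and 355 to 660 CPM. With the myeloid score as a covariate 3 members were called in place of 6, the selected gene Ier3 being among the 6. The log2 fold change of Ier3 was then 0.0313. All 5 red blood cell markers were called higher at 5 d, with summed levels of 147 to 289 CPM and 314 to 2751 CPM. Among Jag antibody mice 4 of 10 myeloid and 3 of 8 lymphocyte markers were called lower at 5 d and 4 of 5 red blood cell markers higher, with myeloid sums of 289 to 566 CPM at 15 h and 174.5 to 706 CPM at 5 d, lymphocyte sums of 4.46 to 93.8 and 5.08 to 17.97 CPM, and red blood cell sums of 142 to 337 and 308 to 1867 CPM. The part of these markers in the results was not tested. When only the 2 control groups were fitted, none of the 10 members and 0 of all genes passed the threshold by edgeR.

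Whether the change from 15 h to 5 d differed between the antibodies was tested for the members other than Fosb and Ier3. None was called by edgeR or DESeq2, where 0.0995% of all genes were called by edgeR. At an unadjusted p under 0.05 there was 1 member, Klf6, whose change was higher by 1.57 on the log2 scale in Jag antibody mice (SE 0.51, adjusted p = 0.145 by edgeR). The differences for Fos (-1.49, SE 1.12, adjusted p = 0.563 by edgeR) and Egr1 (-0.68, SE 1.00, adjusted p = 0.804 by edgeR) did not pass it. So the call of 6 members, the selected gene Ier3 among them, in 1 antibody and 2 in the other is not a shown difference.

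**Figure D2:**
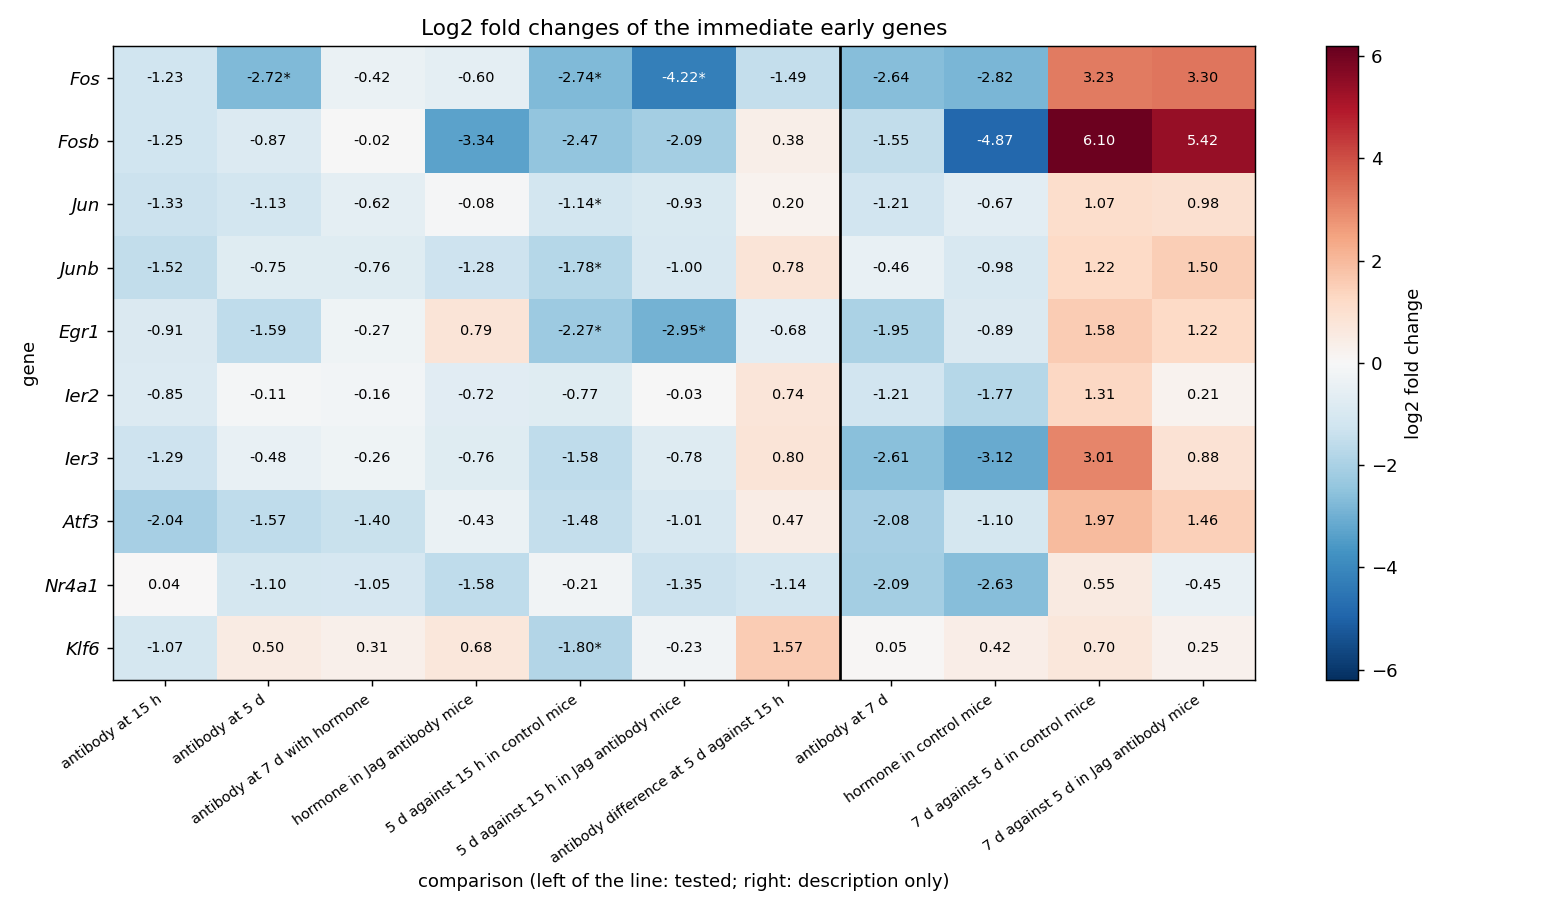
Log2 fold change (colour and number) of each immediate early gene (y axis) in each comparison (x axis); a star marks an adjusted p under 0.05 in the comparisons left of the line, except for Fosb and Ier3, and the comparisons right of it took part in choosing the genes and carry no test. All 10 genes are lower at 5 d than at 15 h under both antibodies, and 9 of 10 are lower with the Jag antibodies at 15 h, 5 d and 7 d.

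The second question was how Jag blockade altered the members at each time. At 15 h, 9 of the 10 members were lower in Jag antibody mice, the exception being Nr4a1 at a log2 fold change of 0.04. The median log2 fold change was -1.24 over the members and -0.04 over all genes. None of the members passed the threshold by edgeR, where 1.14% of all genes were called. At an unadjusted p under 0.05 there were 6 members, and DESeq2 called 3 (Jun, Junb and Atf3).

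Jun in Jag antibody mice at 15 h stood at 15.99, 46.9, 33.0, 36.9 and 59.1 CPM, against the 47.6 to 175 CPM of the control mice given above. The groups overlapped through 1 Jag antibody mouse, and the log2 fold change was -1.33 (SE 0.37, adjusted p = 0.0628 by edgeR, 0.0161 by DESeq2). Junb ranged over 8.52 to 18.2 CPM in Jag antibody mice and 9.90 to 55.0 CPM in control mice, with a log2 fold change of -1.52 (adjusted p = 0.121 by edgeR). Atf3 stood at 7.30, 86.0, 70.5, 28.5 and 27.0 CPM in control mice. It stood at 10.1, 8.87, 14.4, 7.28 and 12.7 CPM in Jag antibody mice, with a log2 difference of -2.04 (SE 0.71, adjusted p = 0.145 by edgeR). For Atf3 and Junb control mouse 1 lay within the Jag antibody range and the other 4 control mice lay above it. Control mouse 1 was the lowest of its group for 8 members, and without it 3 members were called. Fos (-1.23), Fosb (-1.25), Ier3 (-1.29), Klf6 (-1.07), Egr1 (-0.91) and Ier2 (-0.85) had log2 fold changes whose adjusted p lay between 0.131 and 0.748. All 10 myeloid markers were lower in the Jag antibody mice, 2 of them past the threshold, with summed levels of 289 to 566 CPM against 299 to 6275 CPM in control mice, and their part in the result was not tested.

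At 5 d, 9 of the 10 members were lower in Jag antibody mice, with Klf6 the exception at 0.50. The median log2 fold change was -0.98 over the members and 0.04 over all genes. Fos alone was called, where 8.02% of all genes were called and 5.93% as lower. All 5 Jag antibody mice, at 0.832 to 1.43 CPM of Fos, lay below all 5 control mice, at 1.54 to 17.1 CPM. The fall was 2.72 on the log2 scale (SE 0.85, adjusted p = 0.0431 by edgeR). The values of Jun did not overlap either. Jun stood at 18.6, 22.5, 12.8, 21.7 and 25.0 CPM in the Jag antibody mice and at 25.3 CPM or more in the control mice. Its log2 fold change was -1.13 (SE 0.37, adjusted p = 0.0530 by edgeR). Such absence of overlap was seen for 2 of 10 members and for 4.94% of all genes.

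The call of Fos at 5 d was close to the threshold. It was kept in 4 of 9 alternative fits and in 2 of 10 with a mouse left out, with log2 fold changes of -2.77 to -1.14 over the fits. Skeletal muscle markers differed between the same groups, 6 of 8 called lower in Jag antibody mice. So did fibroblast and progenitor markers, 3 of 6 called lower, with summed levels of 733 to 1471 CPM against 1279 to 4944 CPM in control mice, and mural cell markers, 3 of 6 called lower, with 225.5 to 359 CPM against 314 to 931 CPM. With the muscle score or the myeloid score as a covariate no member was called. Their part in the result was not tested. Within groups the correlation of Fos with the muscle score was 0.16 (Spearman 0.21, adjusted permutation p = 0.697 and 0.632). Egr1 (-1.59), Atf3 (-1.57), Nr4a1 (-1.10), Junb (-0.75) and Ier2 (-0.11) were lower without passing the test. Fosb was at -0.87 and Ier3 at -0.48.

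At 7 d without hormone the values chose the members and are described only. Ier3 stood at 31.1, 73.2, 15.2, 106 and 52.7 CPM in control mice. It stood at 12.0, 13.7, 6.52, 8.07 and 5.14 CPM in Jag antibody mice, so the groups did not overlap, as for 3.31% of all genes. The log2 fold change was -2.61 (SE 0.54). Fos stood at 270.3, 29.2, 2.34, 10.4 and 34.9 CPM in control mice and Nr4a1 at 369, 405, 137, 239 and 211 CPM. The Jag antibody mice had Fos at 15.6, 24.3, 7.19, 2.55 and 5.91 CPM and Nr4a1 at 152, 30.1, 66.1, 34.7 and 35.5 CPM. The log2 fold changes were -2.64 for Fos and -2.09 for Nr4a1, and both overlapped between the groups through 1 or more mice. Atf3 (-2.08), Egr1 (-1.95), Fosb (-1.55), Jun (-1.21), Ier2 (-1.21) and Junb (-0.46) were lower too, and Klf6 was at 0.05. Without 1 of the mice the log2 fold change of Fos was as small as -0.78 and that of Fosb -0.49. The median was -1.75 over the members, with 2.50% of all genes called in this comparison. Control mouse 1 was the highest of its group for 8 members and Jag antibody mouse 7 for 9, though mouse 7 was the lowest for Nr4a1. Other groups were less uniform. Among Jag antibody mice at 5 d no mouse was the highest for more than 3 members.

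Against 5 d, the 7 d mice stood out most in Fosb. In control mice Fosb stood at 271, 57.0, 11.3, 40.8 and 59.6 CPM at 7 d. At 5 d it stood at 3.72, 0.226, 1.10, 0.881 and 0.168 CPM, so that the lowest mouse at 7 d was above the highest at 5 d. Jag antibody mice had Fosb at 23.5, 68.7, 46.6, 10.6 and 0.824 CPM at 7 d. At 5 d it stood at 0.0535, 0.684, 0.0462, 0 and 2.37 CPM, and mouse 10 at 7 d overlapped that range. The log2 differences were 6.10 (SE 1.15) in control mice and 5.42 (SE 1.14) in Jag antibody mice. Fos differed by 3.23 and 3.30, and Ier3 by 3.01 in control mice and 0.88 in Jag antibody mice. Without control mouse 1 at 7 d the difference of Fos in control mice was 1.33 and that of Fosb 5.01. These values use the mice that chose the members, and no test is given. Where all genes are concerned, 9.13% were called in control mice and 3.29% in Jag antibody mice. The groups did not overlap for 4.41% and 4.13% of all genes.

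Fosb also changed its place relative to Fos. The level of Fosb was below that of Fos, in CPM, in all 10 mice at 15 h, in 9 of 10 mice at 5 d and in all 10 hormone-treated mice. At 7 d without hormone it was above Fos in 5 of 5 control mice and 4 of 5 Jag antibody mice, though in control mouse 1 the levels were nearly equal, at 270.6 CPM for Fosb and 270.3 for Fos. The mean log2 difference, Fosb minus Fos, was 1.19 ± 0.91 in control mice (SD, n = 5) and 0.81 ± 2.11 in Jag antibody mice (SD, n = 5) at that time. In the other 6 groups it lay between -2.91 and -1.59. Fosb has the longer exonic length, and per kb it was above Fos in 2 of 5 control mice and 3 of 5 Jag antibody mice at 7 d and in no mouse of the other groups. No test is given, because the level of Fosb at 7 d was used to choose the members.

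**Figure D3:**
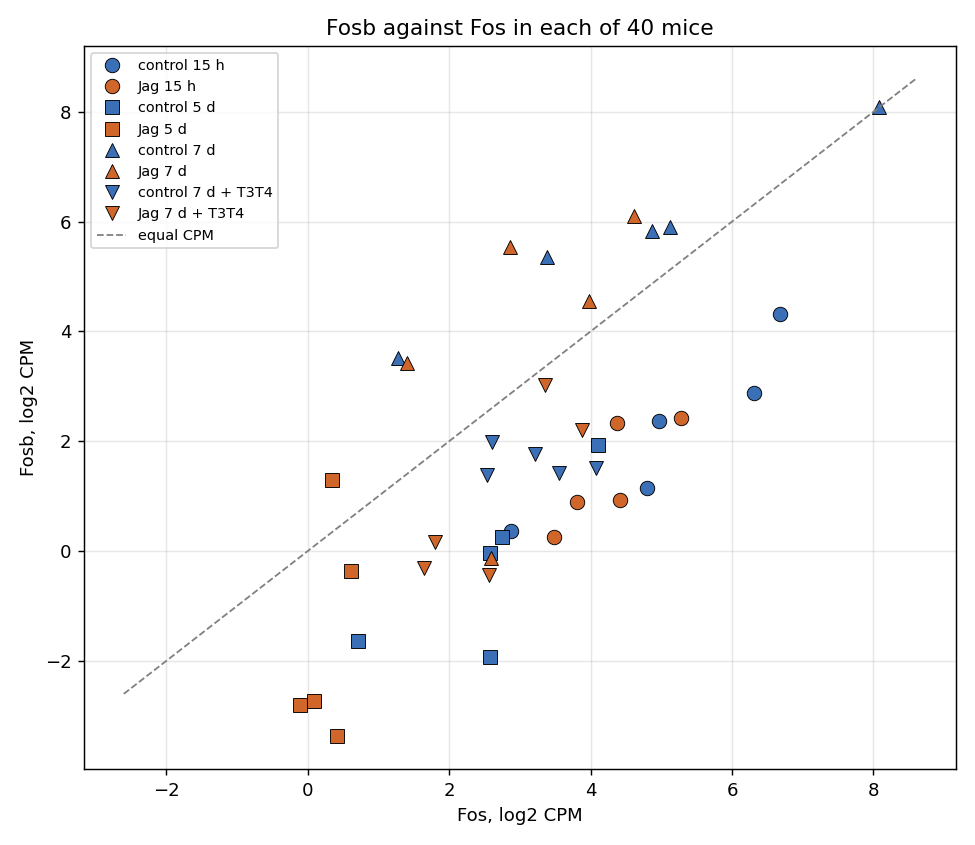
Fosb (y axis) against Fos (x axis), both log2 CPM, 1 point per mouse; shape and colour give the group, and the dashed line marks equal CPM. The 7 d mice without hormone lie above the line in 9 of 10 cases, and the 15 h and hormone-treated mice lie below it.

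The third question was how thyroid hormone altered the members at 7 d. In control mice this contrast chose Fosb, and it is described only. Fosb stood at 3.33, 2.51, 2.59, 2.75 and 3.85 CPM in hormone-treated control mice, all below the 11.3 CPM of the lowest untreated mouse. The log2 difference was -4.87 (SE 1.08). Ier3 in the same hormone-treated mice stood at 6.05, 9.07, 5.26, 6.77 and 4.88 CPM, all below the untreated range that began at 15.2 CPM, a log2 difference of -3.12. Nr4a1 stood at 61.3, 21.4, 46.6, 58.9 and 31.9 CPM, below the 137 CPM of the lowest untreated mouse, a log2 difference of -2.63. Fos differed by -2.82 and Ier2 by -1.77, with overlapping ranges. Without control mouse 1 of the untreated group the difference of Fos was -0.95 and that of Fosb -3.81. The other 5 members were Atf3 (-1.10), Junb (-0.98), Egr1 (-0.89), Jun (-0.67) and Klf6 (0.42). In this comparison 43.2% of all genes were called, and 29.8% of genes did not overlap between the groups. Brown adipocyte markers summed to 10940 to 17490 CPM with hormone and 32990 to 70130 CPM without. Endothelial sums were 754 to 1059 and 313 to 683 CPM, and myeloid sums 551 to 1111 and 112 to 274 CPM. Fibroblast and progenitor sums were 2190 to 4506 and 665 to 1270 CPM. The length slope, a measure of how far long transcripts are favoured in a library, also separated the groups. It ran from 0.0355 to 0.247 with hormone and from -0.545 to -0.0636 without. The part of these markers and of the length slope in the differences was not tested.

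In Jag antibody mice the untreated 7 d mice also took part in choosing the members, so Fosb and Ier3 are only described. Of the 10 members 1 was called, the selected gene Fosb, where 9.50% of all genes were called and 5.21% of all genes as lower, and nothing is read from that count. The log2 difference of Fosb was -3.34 (SE 1.01), between -4.14 and -2.78 with a mouse left out. Its values in the hormone-treated Jag antibody mice were 4.53, 0.647, 8.04, 1.03 and 0.716 CPM. These overlapped the untreated mice, because untreated mouse 10 stood at 0.824 CPM while the other 4 stood at 10.6 CPM or more. Nr4a1 stood at 33.3, 8.89, 24.1, 14.7 and 25.6 CPM with hormone, with a log2 fold change of -1.58 and an adjusted p of 0.124 by edgeR. Ier3 was at -0.76. Junb (-1.28), Ier2 (-0.72), Fos (-0.60), Atf3 (-0.43) and Jun (-0.08) were lower without passing the test, and Egr1 (0.79) and Klf6 (0.68) were higher without passing it. With hormone 3 of 10 myeloid and 3 of 6 fibroblast and progenitor markers were called higher, and 2 of 10 brown adipocyte markers lower. Of 6 mural markers 2 were called higher and 1 lower. The length slope ran from 0.0427 to 0.187 with hormone and from -0.152 to 0.0319 without. The part of these markers and of the length slope was not tested.

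Among hormone-treated mice, Jag blockade gave a median log2 fold change of -0.35 over the members and -0.02 over all genes, with 9 of 10 lower. Fosb (-0.02) and Ier3 (-0.26) are only described here. None of the other members was called by edgeR, DESeq2 or limma, and none had an unadjusted p under 0.05 by edgeR, where 1.14% of all genes were called. Atf3 had the value nearest the threshold. It stood at 16.8, 12.7, 66.0, 30.6 and 17.8 CPM in control mice and at 15.5, 17.6, 10.9, 6.63 and 3.75 CPM in Jag antibody mice, a log2 difference of -1.40 (SE 0.69, adjusted p = 0.426 by edgeR). The intervals are wide, since the standard errors of the 10 members ran from 0.36 to 0.96. These mice include the hormone-treated control mice of the contrast that chose Fosb.

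Within groups many pairs of members moved together from mouse to mouse, a measure that does not use the group differences that chose them. How often pairs of other genes moved together was not computed, so this is not shown to be particular to the members. After the mean of each group was removed, 23 of the 45 pairs of members were correlated over the 40 mice at an adjusted p under 0.05 (100000 permutations within groups, two-sided, Benjamini-Hochberg over 45 pairs), all of them positively. Junb and Ier2 had the highest r, 0.81 (Spearman 0.77, adjusted p = 0.000225 and 0.00015, unadjusted 1e-05, the smallest that the permutations can give). Without the 2 mice farthest from the median of Junb r was 0.78. Fos and Egr1 followed at 0.74 (Spearman 0.69, adjusted p = 0.000338 and 0.00081), Fos and Jun at 0.72 (Spearman 0.78, adjusted p = 0.000225 and 0.00015), Fos and Junb at 0.69 (Spearman 0.60, adjusted p = 0.00045 and 0.001) and Fos and Fosb at 0.67 (Spearman 0.73, adjusted p = 0.0003 and 0.00015). Without the 2 mice farthest from the median of Fos these were 0.66, 0.70, 0.54 and 0.62.

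Fos and Jun each took part in 7 of their 9 pairs, Fosb and Egr1 in 6, Junb and Atf3 in 5, Ier2 and Nr4a1 in 4 and Klf6 in 2. Ier3 took part in 0 of 9 by Pearson or Spearman, and its r with the others ran from -0.21 (Nr4a1) to 0.35 (Junb). Its r with Fosb, the other gene for which the set was chosen, was 0.01 (Spearman -0.10, adjusted p = 0.974 and 0.679). A p that misses the threshold does not show that Ier3 is unrelated to them.

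**Figure D4:**
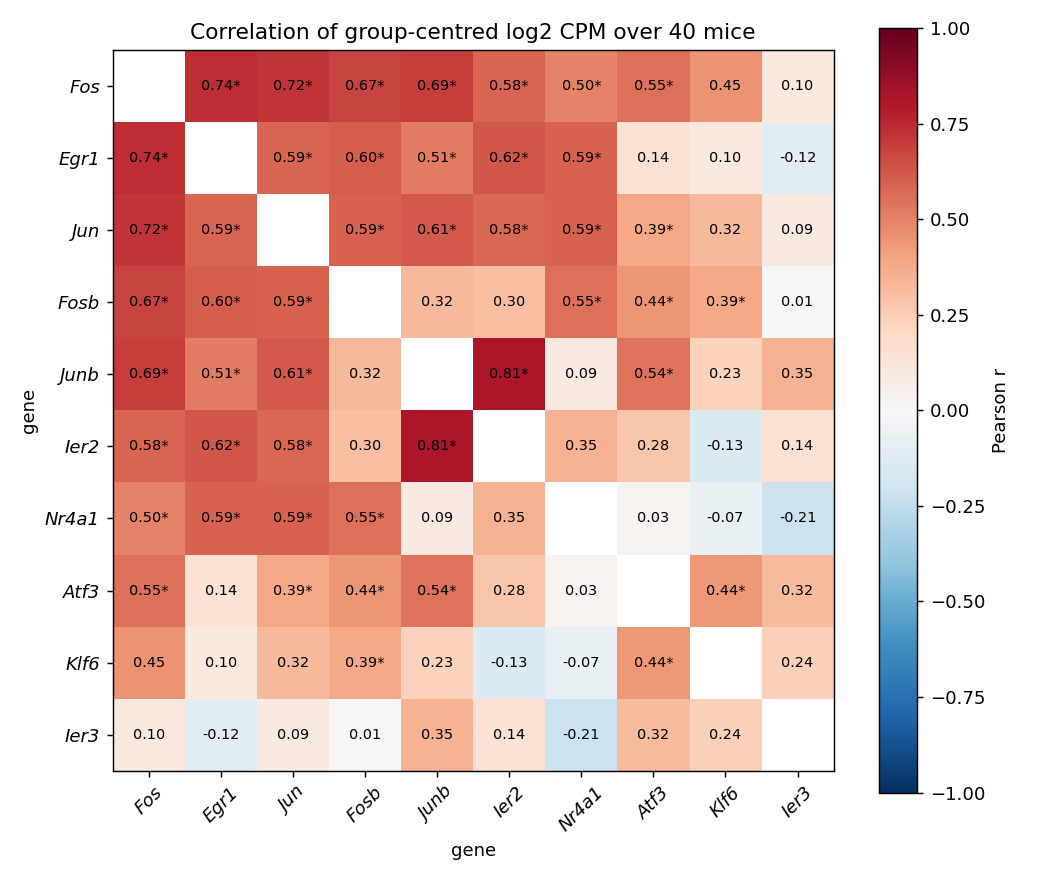
Pearson r between members over 40 mice after removal of the mean of each group (both axes list the 10 genes; colour and number give r); a star marks an adjusted permutation p under 0.05. Stars fill most of the upper left block from Fos to Ier2, and the row of Ier3 has none.

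Of 50 relations between the members and 5 measures of the library, 3 passed the threshold. Atf3 followed the myeloid score within groups with r = 0.64 (Spearman 0.69, adjusted permutation p = 0.0005 for both), and r was 0.60 without the 2 mice farthest from the median score. Ier3 followed the myeloid score with r = 0.63 (adjusted p = 0.0197), but Spearman's rho was 0.46 (adjusted p = 0.155) and r was 0.41 without the 2 farthest mice, so the relation rests in part on those mice. Klf6 followed the length slope, which measures how far long transcripts are favoured in a library, with r = 0.63 (Spearman 0.56, adjusted p = 0.0015 and 0.0145) and 0.53 without the 2 farthest mice. Fos, Fosb, Jun, Junb, Egr1, Ier2 and Nr4a1 had no relation past the threshold with the muscle score, the myeloid score, the mitochondrial share, the length slope or the library total.

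The genes most like Fosb within groups were sought among 12130 genes by Pearson's r over the 40 group-centred mice, as a description. They were Egr3 (0.77) and Egr2 (0.71), zinc finger relatives of Egr1, Arc (0.77), an activity-induced gene best known from neurons, Apold1 (0.66) and Btg2 (0.65). The genes most like Ier3 were Bcl10 (0.76), an adaptor of NF-kappaB signalling, Nr2c2ap (0.75), Zkscan6 (0.74), Anxa2 (0.73), a calcium-dependent membrane protein, and Smn1 (0.73). These lists share no gene. The values share libraries and depth.

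A wider list of 40 immediate early genes, of which 39 were tested, was read beside the members. From 15 h to 5 d in control mice 29 of the 39 were lower and 10 higher, with a median log2 fold change of -1.02. Of the 39, 19 were called lower and 1 was called higher, where 20.1% of all tested genes were called lower. The largest falls were those of Egr3 (-2.50), Dusp5 (-2.44), a phosphatase of ERK, Egr2 (-2.35) and Socs3 (-2.33), an inhibitor of cytokine signalling, at adjusted p of 0.0267, 0.00385, 0.0257 and 0.0157 by edgeR. Egr2 and Egr3 lost their calls in 6 and 5 of 10 fits with a mouse left out, and Socs3 in 6 of 11 alternative fits. Under the Jag antibodies 28 were lower and 11 higher. Of these 6 were called lower and 3 higher, among them Nr4a2 (-1.74), Ccn1 (-1.71), Sik1 (-1.59), a kinase that restrains CREB coactivators, and Klf2 (1.44), where 6.24% of all genes were called lower. The median was -0.53. Ccn1 lost its call in 6 of 11 alternative fits and 7 of 10 with a mouse left out, Nr4a2 in 5 and 7, and Sik1 in 2 and 5.

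For Jag blockade at 15 h, 29 of the 39 were lower and 10 higher, and 3 were called lower, where 1.14% of all genes were called in either direction. Plk2, a polo-like kinase, fell by 0.95 (SE 0.15, adjusted p = 0.00353 by edgeR), and its groups did not overlap, as for 2.48% of all genes. Plk3 fell by 1.86 and Zfp36, which destabilises short-lived mRNA, fell by 1.32 (adjusted p = 0.0372 and 0.0490 by edgeR). At 5 d Gadd45a fell by 2.63, Ccn2 fell by 2.07 and Myc rose by 1.23 (adjusted p = 0.00943, 0.0338 and 0.0277 by edgeR). In hormone-treated against untreated Jag antibody mice Gadd45g fell by 1.85, Jund, the third Jun protein, fell by 1.18 and Plk2 rose by 0.60. The called shares of all genes were 8.02% at 5 d and 9.50% with hormone. Zfp36 lost its call in 8 of 9 alternative fits and 9 of 10 with a mouse left out, Plk3 in 6 and 7, Ccn2 in 4 and 6 and Gadd45a in 4 and 1. Without control mouse 5 at 5 d Gadd45a was at -1.62 (adjusted p = 0.0919 by edgeR). Myc lost its call in 2 of 9 alternative fits and in 4 of 10 with a mouse left out.

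Regulators that act on these genes were given by a list of 22. From 15 h to 5 d in control mice 7 of the 22 were called lower, where 20.1% of all genes were, with Elk4 (-1.22), a partner of the serum response factor, Creb1 (-1.12), Rps6ka3 (-0.84), a kinase of CREB, and Atf1 (-0.71) furthest from 0. Rps6ka3 and Atf1 each lost the call in 5 of 11 alternative fits and 3 of 10 with a mouse left out. In Jag antibody mice 1 of the 22 was called, Mapk3 (0.50), where 14.5% of all genes were called. With hormone in Jag antibody mice Srf, the serum response factor itself, fell by 0.75 and Crem, a cyclic AMP-responsive relative of Creb1, fell by 0.68, while Elk3 rose by 0.69 (adjusted p = 0.0402, 0.00232 and 0.01602 by edgeR). No other of the 22 was called there, where 9.50% of all genes were called. The call of Srf was lost in 7 of 11 alternative fits and 7 of 10 with a mouse left out, and that of Crem in none of them. Of 9 further leucine zipper partners of AP-1, Mafk (-1.02) and Mafg (-0.57) were called lower from 15 h to 5 d in control mice, a share near the 20.1% of all genes, and Mafg lost the call in 8 of 11 alternative fits and 6 of 10 with a mouse left out.

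Of 12 heat shock genes, which protein-damaging stress induces, few were called from 15 h to 5 d, and not in 1 direction. In control mice Hspe1 (1.04) and Hsf1 (0.59) rose and Hsp90aa1 (-1.48) fell, with a list median of 0.22, where 36.4% of all genes were called. The call of Hspe1 there was lost in 7 of 11 alternative fits. Under the Jag antibodies Hspe1 (1.52) rose while Hsp90aa1 (-1.37) and Dnaja1 (-0.78) fell, where 14.5% of all genes were called. At 7 d without hormone all 12 were lower in Jag antibody mice, as a description, with a median log2 fold change of -0.93 against 0.05 over all genes. Dnajb1 (-1.48) and Dnaja1 (-0.93), chaperone partners of Hsp70, were among them.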

How the data were processed

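RNA of 40 brown adipose tissue samples was extracted with Trizol and columns and read as single-end 50 bp reads on an Illumina HiSeq instrument, per the labels' protocols. The deposited files hold raw gene counts and FPKM values made by the authors. The submitters' processing notes name GSNAP and limma without a role or version, and the counter, genome build, annotation and strand setting are not given in the sources used here. In the deposited FPKM values, count divided by FPKM is a median-of-ratios library factor times a length that follows the genomic span for 84.2% of 10431 genes, so levels between genes were compared as CPM per exonic kb (GENCODE M21). Symbols were found for 52403 of 52636 identifiers.

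The members and gene lists were chosen with earlier results of these data known. All members are named. Of the other lists, up to 4 called genes with the largest absolute log2 fold change are named per comparison, and for Fosb and Ier3 the 5 genes most like each. 1 edgeR 4.0.16 quasi-likelihood model (TMM, robust, filterByExpr) was fitted to the counts of all 40 mice in R 4.3.3, with Benjamini-Hochberg adjustment over 17079 genes at 0.05. 7 comparisons were tested and 4 were described. Correlations used log2 CPM with group means removed, permuted within groups (scipy 1.17.1, numpy 2.4.6). Alternatives were DESeq2 1.42.0, RLE scaling, no filter, limma 3.58.1 on log2(FPKM + 1) and log2(FPKM + 0.1), muscle or myeloid score covariates, length and GC offsets, a replicate block, a fit of only the groups compared, and each mouse left out. The fit was tested on simulated counts for Jag blockade at 5 d, over 16857 genes: of 50 genes changed at each size, 22 were recovered at a 2-fold change and 45 at a 4-fold change. The changed genes were drawn at random among expressed genes. The members varied more, at the 82.3 to 99.2 percentiles of within-group SD, so these shares do not apply to them. No samples of a group agreed within sampling noise (chi-square per degree of freedom of at least 19.4). Groups given antibodies against Notch receptors, which the labels' protocols name, were not analysed here.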

Additional observations from a re-analysis of the deposited data

Results flagged for a closer look

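Egr1 in control mouse 1 at 5 d was 6.72 on the log2 CPM scale (105.2 CPM), and the nearest of the other 4 mice was 4.39. Its gap to that mouse was 0.72 of the group's range, above Dixon's critical value of 0.71 for 5 samples. It was 1 of 80 groups of member values examined, where chance would give about 4.

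Myc, a growth-related transcription factor from the wider list of immediate early genes, changed from 15 h to 5 d by 2.51 more on the log2 scale in Jag antibody mice than in control mice (SE 0.50, adjusted p = 0.0312 by edgeR's interaction test). The call was kept in 10 of 11 alternative fits, with the muscle score covariate as the exception, and in 14 of 20 fits with a mouse left out.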

How the results depend on the processing

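Over 85 gene results and 1769 settings, 1374 kept direction and side of the threshold, 393 lost the call and 2 reversed. Only genes called in the main fit entered these totals. They include Fosb and Ier3 and the comparisons that chose the members, so the totals are not read as support for those. With the myeloid score as a covariate, the log2 fold changes from 15 h to 5 d in control mice were 0.0313 for Ier3 and 0.84 for Socs3 (adjusted p = 0.214 by edgeR), and the cause was not tested. RLE scaling moved the median of all genes by under 0.1. Depth limits Fosb most, with 0 counts in 1 mouse.

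The number of members called moved as follows, and the cause was not tested. For Jag blockade at 15 h it was 3 with DESeq2 in place of 0. At 5 d it was 2 with DESeq2 or RLE scaling and 0 without the filter, with the muscle or the myeloid score, or with limma on either FPKM scale, in place of 1. For hormone in Jag antibody mice it was 3 with the myeloid score and 0 without the filter in place of 1. From 15 h to 5 d it was 3 with the myeloid score and 0 with only the groups compared in control mice, in place of 6, and 4 with length and GC offsets in Jag antibody mice, in place of 2. The comparisons that are described only are left out here, because their values took part in choosing the members. The counts given still include Fosb and Ier3.

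With each mouse left out, the number of members called ran from 0 to 3 for Jag blockade at 15 h, from 0 to 2 at 5 d and was 0 throughout with hormone. It ran from 0 to 1 for hormone in Jag antibody mice. From 15 h to 5 d it ran from 4 to 8 in control mice and from 2 to 3 in Jag antibody mice. The difference between antibodies gave 0 throughout. Correlated pairs ran from 19 to 24, and relations with library measures from 2 to 5, the 5 without control mouse 4 at 7 d.

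The replicate numbers were not taken to pair mice: the correlation of same-numbered mice ran from -0.54 to 0.70, and 1 or 2 of 5 mice correlated best with their own number in each pair of groups. With the replicate block, 0 members were called for hormone in Jag antibody mice, 6 from 15 h to 5 d in control mice and 2 in Jag antibody mice. With the block and the offsets together these were 1, 8 and 3.

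All-gene counts also depended on the fit. The alternatives gave 0 to 577 genes for Jag blockade at 15 h (194 as reported), 89 to 1992 at 5 d (1369), 53 to 858 at 7 d (427) and 117 to 694 with hormone (194). From 15 h to 5 d they gave 0 to 6953 in control mice (6214) and 1564 to 3550 in Jag antibody mice (2470), with 0 to 498 for the difference (17). They gave 990 to 2782 for hormone in Jag antibody mice (1622), and for 7 d against 5 d 161 to 2320 in control mice (1559) and 155 to 1331 in Jag antibody mice (562).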
